A study of Mus musculus with 4 samples.

Results

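The 7 genes described here encode subunits of Polycomb repressive complex 2 (PRC2): the catalytic subunits Ezh1 and Ezh2, the core subunits Eed and Suz12, and the accessory subunits Jarid2, Mtf2 and Phf19. They were chosen by name, and all 7 were found among the 31054 features counted in each library. The study sorted intestinal epithelial cells of Bmi1-GFP reporter mice by flow cytometry and profiled single cells with the 10x Genomics 3′ version 3 chemistry. There were 4 groups, each of 1 library: embryos at E12.5, embryos at E17.5, adult mice, and adult mice that had been irradiated. All 4 groups carried the same reporter genotype, which places GFP at the locus of Bmi1, a subunit of the other Polycomb complex, and the stated design was to sort Bmi1-expressing cells. The dose and timing of irradiation, how many animals of which sex were used, and the sort gates are not given in the sources used here. With 1 library per group no difference between groups has a replicate check, so no p-values are given, and every interval below is a 95% interval that covers counting error only.

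PRC2 places methyl groups on lysine 27 of histone H3, a mark of silenced developmental genes. Ezh2 and Ezh1 are alternative methyltransferase subunits: Ezh2 is typical of dividing cells and Ezh1 of resting ones. Eed binds the methylated histone and stimulates the enzyme, Suz12 holds the complex together, and the accessory subunits divide PRC2 into a form with a Polycomb-like protein (Mtf2, Phf19 or Phf1) and a form with Jarid2 and Aebp2. In the intestine, PRC2 is known for maintaining proliferation in the crypt and for restraining secretory differentiation.

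Upstream sequences of 5 members are shown because these genes differed in how their levels went with cycling state. In the non-endocrine epithelium, cells of the G2/M state (transcripts of dividing cells) were compared with cells of neither cycling state. Ezh2, Suz12 and Mtf2 were higher in the G2/M state in every library, as Phf19 was at E17.5. Ezh1 was lower in that state at E17.5 only, and its intervals overlapped between the states in each library. The window of Eed, which was also higher in the G2/M state, lies within annotated exons and is not shown. The sequences come from RefSeq on GRCm38.p6, read 5′ to 3′ on each gene's strand, and cover the part of the 250 bases before the RefSeq start that lies outside annotated exons: chr6:47595059-47595183 (minus strand) for Ezh2, chr11:79992856-79993105 (plus) for Suz12, chr5:108065424-108065673 (plus) for the first of the 2 windows of Mtf2, chr2:34914027-34914215 (minus) for Phf19 and chr11:101226464-101226713 (minus) for Ezh1. Capitals mark matches to an E2F motif (TTTCCCGC, TTTCGCGC, TTTGCCGC or TTTGGCGC) or to CCAAT, on either strand.
Ezh2: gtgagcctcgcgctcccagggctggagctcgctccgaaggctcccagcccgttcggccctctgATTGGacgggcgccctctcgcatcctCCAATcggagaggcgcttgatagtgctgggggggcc
Suz12: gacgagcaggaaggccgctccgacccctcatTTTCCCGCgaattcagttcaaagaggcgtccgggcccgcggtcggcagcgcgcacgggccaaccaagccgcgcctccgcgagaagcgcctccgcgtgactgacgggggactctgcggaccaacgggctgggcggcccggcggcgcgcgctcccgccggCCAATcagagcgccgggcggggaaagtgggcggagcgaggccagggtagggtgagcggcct
Mtf2: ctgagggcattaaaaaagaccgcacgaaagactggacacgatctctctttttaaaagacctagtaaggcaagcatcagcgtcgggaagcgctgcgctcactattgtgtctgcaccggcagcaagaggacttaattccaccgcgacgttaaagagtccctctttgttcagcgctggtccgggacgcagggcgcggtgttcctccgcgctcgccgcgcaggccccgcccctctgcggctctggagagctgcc
Phf19: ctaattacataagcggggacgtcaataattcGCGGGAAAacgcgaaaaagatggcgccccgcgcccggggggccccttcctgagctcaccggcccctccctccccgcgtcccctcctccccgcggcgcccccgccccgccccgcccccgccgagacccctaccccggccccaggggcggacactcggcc
Ezh1: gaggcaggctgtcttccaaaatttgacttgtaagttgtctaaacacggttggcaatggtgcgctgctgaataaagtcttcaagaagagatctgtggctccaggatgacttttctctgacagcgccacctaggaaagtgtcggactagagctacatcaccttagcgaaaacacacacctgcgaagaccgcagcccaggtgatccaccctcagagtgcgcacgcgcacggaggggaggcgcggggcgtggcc
The E2F motif was present in the windows of Suz12 and Phf19, and in 1.86% of all 32851 promoter windows of the same length. For Phf19 alone, the sequence checked after the RefSeq start was not found in the gene's annotated transcripts. CCAAT was present in the windows of Ezh2 and Suz12, in 1 of 2 windows each of Jarid2 and Mtf2, and in 33.8% of all windows. The motif TTTGAA was also searched on both strands and held by 16.0% of all windows; Suz12, Eed and 1 window of Mtf2 had it. The windows of Ezh1 and the remaining ones of Jarid2 and Mtf2 held none of the 3 motifs. A match describes letters in this window and is not a measured binding site.

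The libraries held 90674425, 77677622, 38648331 and 50761353 UMIs (unique molecular identifiers, each counting 1 captured transcript) for E12.5, E17.5, adult and irradiated adult cells respectively. Filters on genes per cell, mitochondrial UMIs and putative doublets left 4050, 4409, 3597 and 3031 cells, with median depths of 18098, 10994, 3606 and 8547 UMIs. Pairs of libraries shared 6 to 12 cell barcodes. Clusters carried epithelial markers in the main, but 140 pancreatic progenitor-like cells at E12.5, and 533 pancreatic acinar-like, 140 islet-like, 119 mesenchymal-like, 119 smooth muscle-like and 22 mesothelial-like cells at E17.5, went against the intestinal epithelial label and were left out of the epithelial cells. The epithelial cells that remained, unnamed clusters included, numbered 3910, 3476, 3597 and 3031. Their makeup differed between libraries: enteroendocrine-like cells, the hormone-secreting cells of the gut, numbered 11, 998, 2096 and 1730, and tuft-like cells, the chemosensory cells, were named only in the adult (974) and irradiated adult (481). Comparisons were therefore also made in the non-endocrine epithelium, meaning clusters named epithelial without a lineage, enterocyte-like, goblet-like, Paneth-like or crypt base columnar stem-like (3120, 2009, 399 and 276 cells). That set was settled after the clusters were seen.

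Ezh2, the methyltransferase subunit of dividing cells, was lower in each successive library. Over the epithelial cells its level was 247 UMIs of the gene per 1e6 UMIs (CPM; interval 244 to 251) at E12.5, 85.7 (83.4 to 88.0) at E17.5, 42.6 (40.3 to 45.0) in adult cells and 26.3 (24.7 to 27.9) after irradiation. No interval overlapped another. In the non-endocrine epithelium the order was the same, with Ezh2 at 250 CPM (246 to 253), 97.9 (95.2 to 101), 62.5 (58.1 to 67.0) and 22.8 (20.4 to 25.4).

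Ezh1, the alternative methyltransferase, followed another order. Over the epithelial cells it stood at 8.31 CPM (7.69 to 8.97) at E12.5, 9.21 (8.47 to 10.0) at E17.5, 20.9 (19.3 to 22.6) in adult cells and 15.4 (14.2 to 16.7) after irradiation. Both adult libraries lay above both embryonic ones, whose intervals overlapped. In the non-endocrine epithelium the levels were 8.28, 8.08, 7.52 and 6.35 CPM, and the intervals of neighbouring libraries overlapped throughout, so the higher adult level was seen in the cell mixture and not in that compartment.

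**Figure D1:**
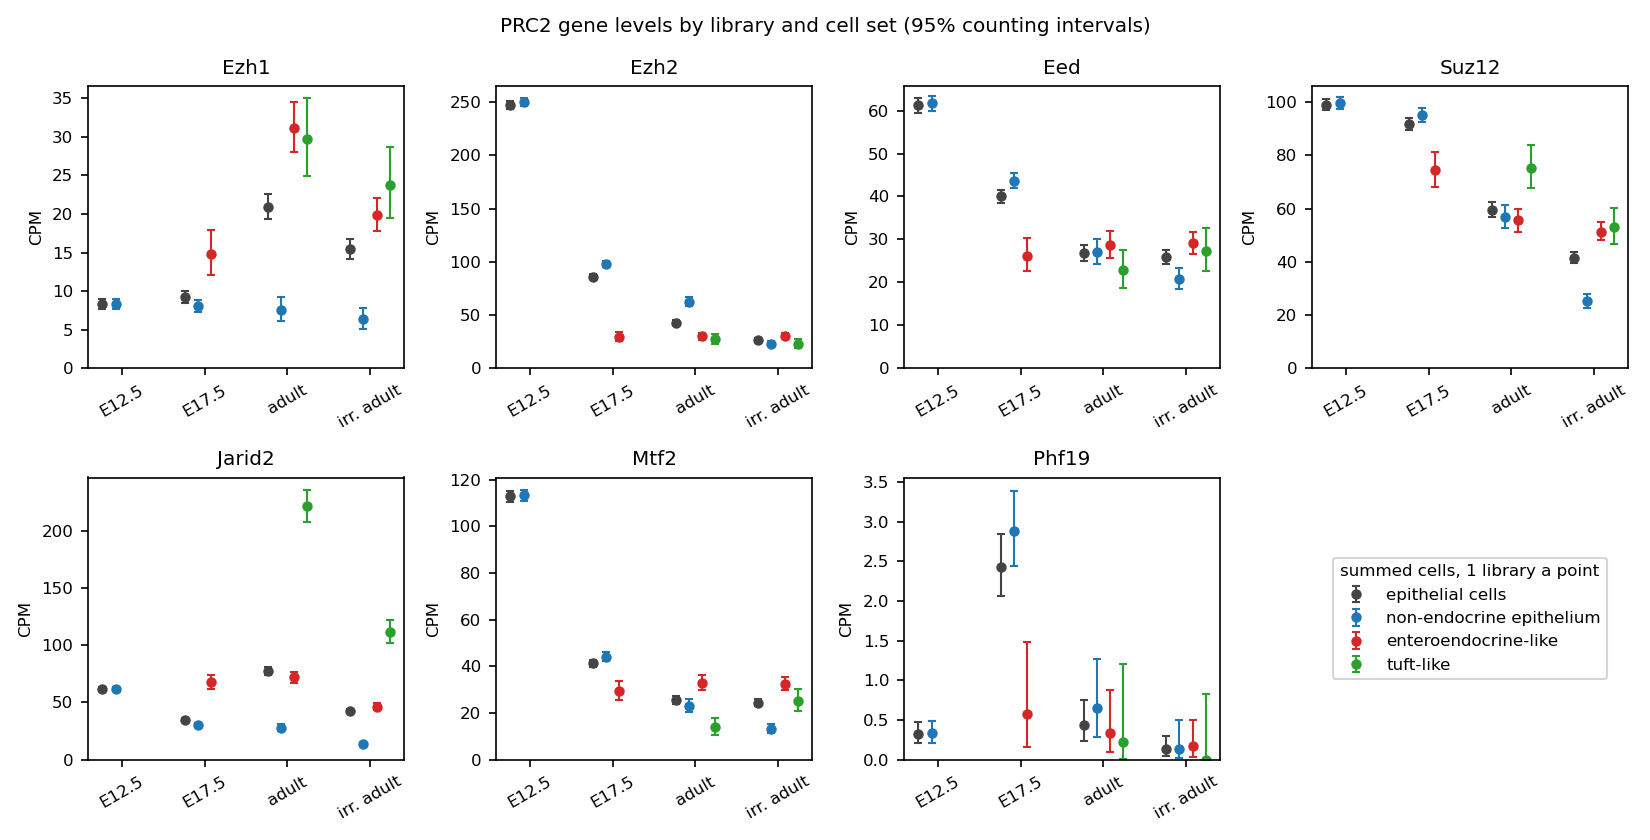
Levels of the 7 genes in CPM in each library, with 95% counting intervals. The sets are the epithelial cells, the non-endocrine epithelium, enteroendocrine-like cells and tuft-like cells, where a set held at least 50 cells. In the epithelial cells Ezh2 is at 247 CPM at E12.5 and 26.3 CPM in the irradiated adult, while Ezh1 is at 8.31 and 15.4 CPM.

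The core subunits varied less between libraries than Ezh2. Eed, the subunit that reads the methyl mark, was at 61.2 CPM (59.5 to 63.0) at E12.5, 40.0 (38.5 to 41.6) at E17.5, 26.8 in adult cells and 25.9 after irradiation. The intervals of the 2 adult libraries overlapped. Suz12, the scaffold, was at 99.2 CPM (97.0 to 101), 91.8 (89.5 to 94.3), 59.6 (56.9 to 62.5) and 41.6 (39.5 to 43.6) in the same order, with no overlap between neighbours. In the non-endocrine epithelium Suz12 at E12.5 (99.9 CPM, 97.6 to 102) and E17.5 (95.2 CPM, 92.5 to 97.9) nearly coincided.

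Among the accessory subunits, Mtf2, a Polycomb-like protein that brings PRC2 to unmethylated CpG islands, was at 113 CPM (111 to 115) at E12.5, 41.3 (39.7 to 42.9) at E17.5, 25.6 (23.8 to 27.5) in adult cells and 24.3 (22.8 to 25.9) after irradiation. Jarid2, the cofactor that helps recruit the other form of PRC2, was at 61.9 CPM (60.2 to 63.6), 34.8 (33.4 to 36.3), 77.2 (74.1 to 80.4) and 42.3 (40.3 to 44.4). Jarid2 was the only member with its highest library level in the adult other than Ezh1. That order went with depth and cell mixture. In epithelial cells of at least 10000 UMIs Jarid2 was highest at E12.5, at 61.0, 30.3, 39.4 and 35.7 CPM in library order. In non-endocrine cells of that depth it was at 61.3, 29.4, 27.1 and 13.2 CPM. Phf19, a second Polycomb-like protein, was close to the detection limit: 0.327 CPM (0.214 to 0.480) at E12.5, 2.43 (2.06 to 2.85) at E17.5, 0.437 (0.233 to 0.747) in adult cells and 0.129 (0.0419 to 0.301) after irradiation, resting on 26, 151, 13 and 5 UMIs. E17.5 was its highest library by a wide margin.

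Change over fetal development was read from E17.5 against E12.5. A gene was called higher or lower when log2 of the ratio of CPM + 1 reached a fold of 2, among genes with at least 50 UMIs in either group. Over the epithelial cells Phf19 was called higher, at 7.42-fold (4.87 to 11.7), where 15.7% of all genes tested were, and Ezh2 and Mtf2 were called lower, where 17.2% were. Ezh2 was 2.89-fold lower (2.80 to 2.97) and Mtf2 was 2.73-fold lower. The median log2 ratio of the 7 members was -0.60, against -0.21 over all genes tested.

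Within the non-endocrine epithelium, Phf19 was again called higher (8.68-fold, 5.65 to 13.8; 13.4% of genes) and Ezh2, Mtf2 and Jarid2 were called lower (20.8% of genes), at 2.55-fold, 2.57-fold and 2.04-fold. The Jarid2 call was lost with TMM factors, at a log2 ratio of -0.72. Suz12 and Ezh1 differed little there, with folds of 0.95 and 0.98. The shares of cells in a cycling state also differed between these libraries, as given below. Among cells outside both cycling states Ezh2 was at 51.5 CPM at E17.5 against 210 CPM at E12.5, or 4.08-fold lower. Mtf2 was 3.13-fold and Jarid2 2.25-fold lower in those cells, where 24.3% of genes were called lower and 17.4% higher. The makeup of the sets moved with these values: all of the E12.5 set was epithelium without a lineage, whereas at E17.5 32.8% of cells were enterocyte-like and 8.61% goblet-like.

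Within the epithelium without a lineage, the one non-endocrine class both embryonic libraries held, Ezh2 and Mtf2 were again lower than at E12.5. Ezh2 was at 121 against 250 CPM (fold 0.48, 0.47 to 0.50) and Mtf2 at 49.5 against 113 (fold 0.44), both called lower, where 18.5% of genes were, and Phf19 was called higher, where 11.1% were. Jarid2, at 30.5 against 61.6 CPM, missed the call with a log2 ratio of -0.99. In that class's cells of neither cycling state Ezh2 was at 96.2 against 210 CPM (fold 0.46, 0.40 to 0.52) and again called lower with Mtf2 (13.6% of genes lower, 9.14% higher). This comparison was added after the data were seen.

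From E17.5 to the adult, over the epithelial cells, Ezh1 was called higher (2.27-fold, 2.02 to 2.55) and so was Jarid2 (2.22-fold, 2.09 to 2.35), where 14.6% of genes were; Phf19 was called lower at 5.56-fold, where 15% of genes were. Ezh2 missed the call narrowly, with a log2 ratio of -0.99. The median of the members was -0.61, against -0.09 over all genes. The makeup and depth of the 2 libraries moved with this result, and their part in it was not tested beyond the subsets that follow. Over cells with at least 5000 UMIs the log2 ratios were 0.64 for Ezh1 and 0.67 for Jarid2, under the call.

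Among non-endocrine cells no member was called higher in the adult than at E17.5 (5.39% of genes were), and Phf19 was called lower, at 4.46-fold (16.1% of genes). Secretory transcripts of Paneth-like cells, the defensin-secreting cells of the crypt, took up much of this set: defensin and Lyz1 transcripts made up 60.3% of the UMIs of adult Paneth-like cells, which held 31.2% of the set's UMIs. Without those cells, a choice made after the data were seen, the adult folds over E17.5 were 0.83 (0.77 to 0.90) for Ezh2, 0.80 for Suz12, 0.67 for Mtf2 and 1.17 for Jarid2. The median of the members was then -0.31, against -0.14 over all genes; no member but Phf19 was called (7.02% of genes were higher and 10.3% lower). The adult and E17.5 values of Ezh2 in this compartment were thus closer than over the epithelial cells.

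Within enteroendocrine-like cells, Ezh1 was at 14.8 CPM at E17.5 and 31.2 CPM in the adult and was called higher (2.11-fold, 1.69 to 2.65; 11.3% of genes), and no member was called lower (10.1%). Ezh2 was at 29.2 and 29.9 CPM (1.02-fold, 0.86 to 1.22), and Jarid2 at 67.3 and 71.7 CPM (1.06-fold). Suz12 was at 74.6 and 55.5 CPM. Ezh1 also varied with the depth of the cell: among adult enteroendocrine-like cells it was at 62.6 CPM in cells under 2500 UMIs and 20.8 CPM in cells of 10000 or more, and the nuclear RNA Malat1 went from 70183 to 17138 CPM between the same bins. In cells of like depth the adult fold over E17.5 for Ezh1 was 2.89 (1.59 to 5.77) from 2500 to 5000 UMIs, 1.58 (1.08 to 2.31) from 5000 to 10000 and 1.86 (1.07 to 3.50) above. Each of these intervals lay above 1, although 2 of the 3 folds were under the call. In the same bins the fold of Ezh2 was 0.52 (0.32 to 0.85), 1.22 (0.89 to 1.66) and 1.03 (0.72 to 1.49), and that of Jarid2 1.23, 0.88 and 0.84, each Jarid2 interval including 1.

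Between the irradiated adult and the adult, no member was called in either direction over the epithelial cells (3.05% of genes were higher and 5.35% lower). The folds were 0.62 for Ezh2, 0.55 for Jarid2, 0.70 for Suz12 and 0.74 for Ezh1, and the median of the members was -0.46, against -0.04 over all genes. Ezh2, Suz12 and Jarid2 were below 0 on the log2 scale with the stricter cell filter, with TMM factors and in cells of at least 5000 UMIs alike, whereas Eed reached 0.08 with the stricter filter, Mtf2 reached 0.04 in the deeper cells and Ezh1 was at -0.04 there.

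Among non-endocrine cells, Ezh2, Suz12 and Jarid2 were called lower after irradiation, at 2.74-fold, 2.27-fold and 2.08-fold, where 16.6% of genes were lower. No member was called higher (6.45% of genes). Paneth-like cells held 48.5% of the UMIs of this set in the irradiated adult, against 31.2% in the adult. Without them Ezh2 was at 40.3 CPM against 81.7, which left it called lower (fold 0.49, 0.43 to 0.57; 10.2% of genes lower, 9.58% higher), while Suz12 (0.52) and Jarid2 (0.61) were under the call and Eed and Ezh1 were both at 0.99. The G2/M share of non-endocrine cells was also lower in the irradiated library, 7.91% against 31.1%. The sets also differed in the classes left: stem-like cells held 52.2% of the adult UMIs and were not named after irradiation, and goblet-like cells were named only after irradiation.

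In enterocyte-like cells, the one non-endocrine class name outside Paneth-like cells given in both adult libraries, Ezh2 differed in the opposite direction. Ezh2 was at 51.3 CPM after irradiation against 22.9 (2.24-fold, 1.64 to 3.12) and Eed at 43.0 against 20.5 (2.10-fold), both called higher, where 26.1% of genes were. Suz12 had a fold of 1.20 (0.92 to 1.56) and Jarid2 of 0.71, and no member was called lower (10.3% of genes). These classes held 102 and 60 cells, and the cycling genes Ccnd1 and Ube2c were among the leading genes of the irradiated one. The cells under this name were not alike in the 2 libraries. Enterocyte markers summed to 7359 CPM in the irradiated class against 46486 in the adult one, stem cell markers to 466 against 41.9, and the mitotic genes to 852 against 36.5. The lower Ezh2 and Suz12 of the whole set was not seen in this comparison of unlike cells, which was made after the data were seen. The part of class makeup in the whole-set values was not tested further. Over the whole non-endocrine set, among cells of neither cycling state, Ezh2 was at 15.5 CPM against 31.9, a log2 ratio of -0.99 that missed the call, with 13.1% of genes lower and 7.09% higher.

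Enteroendocrine-like cells showed no called member after irradiation (1.64% of genes were higher and 2.68% lower). Ezh2 was at 30.5 CPM against 29.9 (1.02-fold, 0.89 to 1.17), Eed at 29.1 against 28.6 and Mtf2 at 32.6 against 33.0. Over all depths these 3 values nearly coincided. In bins of like depth the fold of Eed ran from 1.17 to 1.32, that of Ezh2 from 0.65 to 1.03 and that of Mtf2 from 0.79 to 1.27, each interval including 1. Ezh1 had a fold of 0.64 (0.55 to 0.74) and Jarid2 a fold of 0.65 (0.59 to 0.71), but the libraries differed in depth. In bins of like depth the fold of Ezh1 ran from 0.82 to 0.99, each interval including 1, and that of Jarid2 was 0.61 (0.40 to 0.90) under 2500 UMIs, 0.97 (0.73 to 1.27) from 2500 to 5000, 0.70 (0.55 to 0.89) from 5000 to 10000 and 0.91 (0.79 to 1.05) above.

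**Figure D2:**
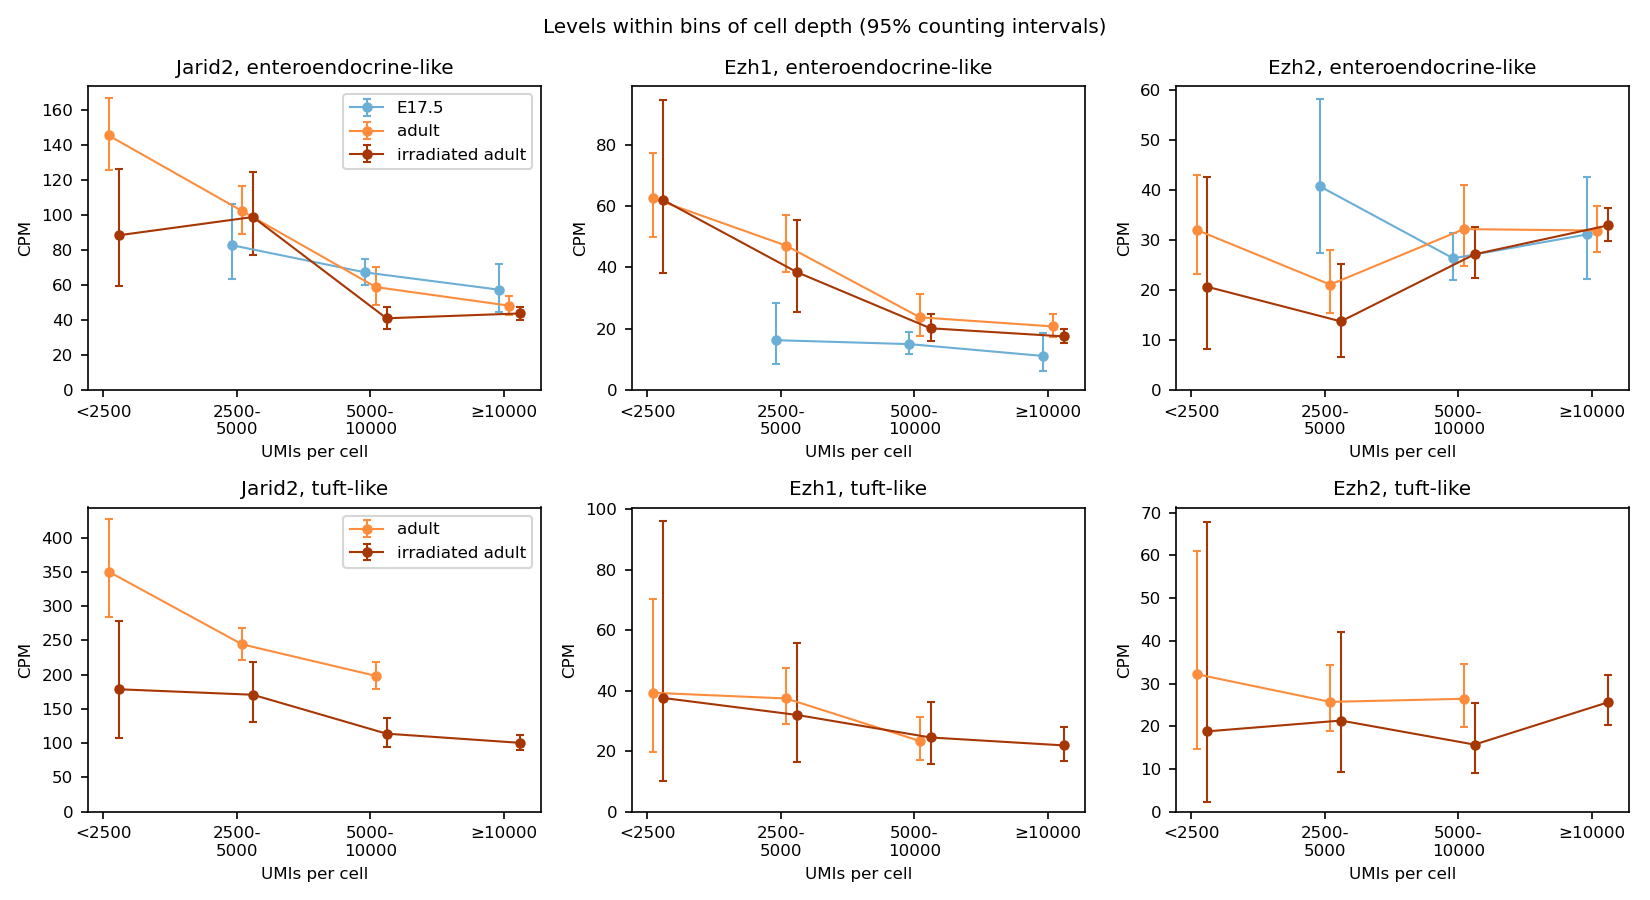
Levels of Jarid2, Ezh1 and Ezh2 in CPM by the UMIs per cell, in enteroendocrine-like cells of 3 libraries and in all tuft-like cells of 2, with 95% counting intervals. In adult enteroendocrine-like cells Ezh1 goes from 62.6 to 20.8 CPM with depth, and Ezh2 is at 32.0 and 31.9 CPM in the same 2 bins.

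Among the named cell classes, Ezh2 was highest in the E12.5 epithelium (250 CPM), followed by the E17.5 epithelium without a lineage (121 CPM), E17.5 goblet-like cells (112 CPM) and adult crypt base columnar stem-like cells (100 CPM, 127 cells), the dividing stem cells of the crypt. It was at 51.3 CPM in E17.5 enterocyte-like cells, 22.9 CPM in adult enterocyte-like cells and 20.2 CPM in adult Paneth-like cells. The lowest value, 4.27 CPM, was in irradiated Paneth-like cells, 67.7% of whose UMIs were defensin and Lyz1 transcripts. Eed and Mtf2 were also highest in the E12.5 epithelium, Suz12 and Phf19 in E17.5 goblet-like cells (103 and 3.67 CPM), Ezh1 in adult enteroendocrine-like cells and Jarid2 in adult tuft-like cells. These are ranks of values alone: the goblet-like class held 173 cells, and its Suz12 level was close to that of the E12.5 epithelium. Irradiated enterocyte-like cells (102 cells) had Ezh2 at 51.3 CPM and Suz12 at 46.0 CPM; the leading genes of that class included the cycling genes Ccnd1 and Ube2c. Of the cells left out as non-intestinal, the pancreatic progenitor-like cells at E12.5 had Ezh2 at 208 CPM, and at E17.5 mesenchymal-like cells had 113, acinar-like cells 48.1 and islet-like cells 20.1 CPM.

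**Figure D3:**
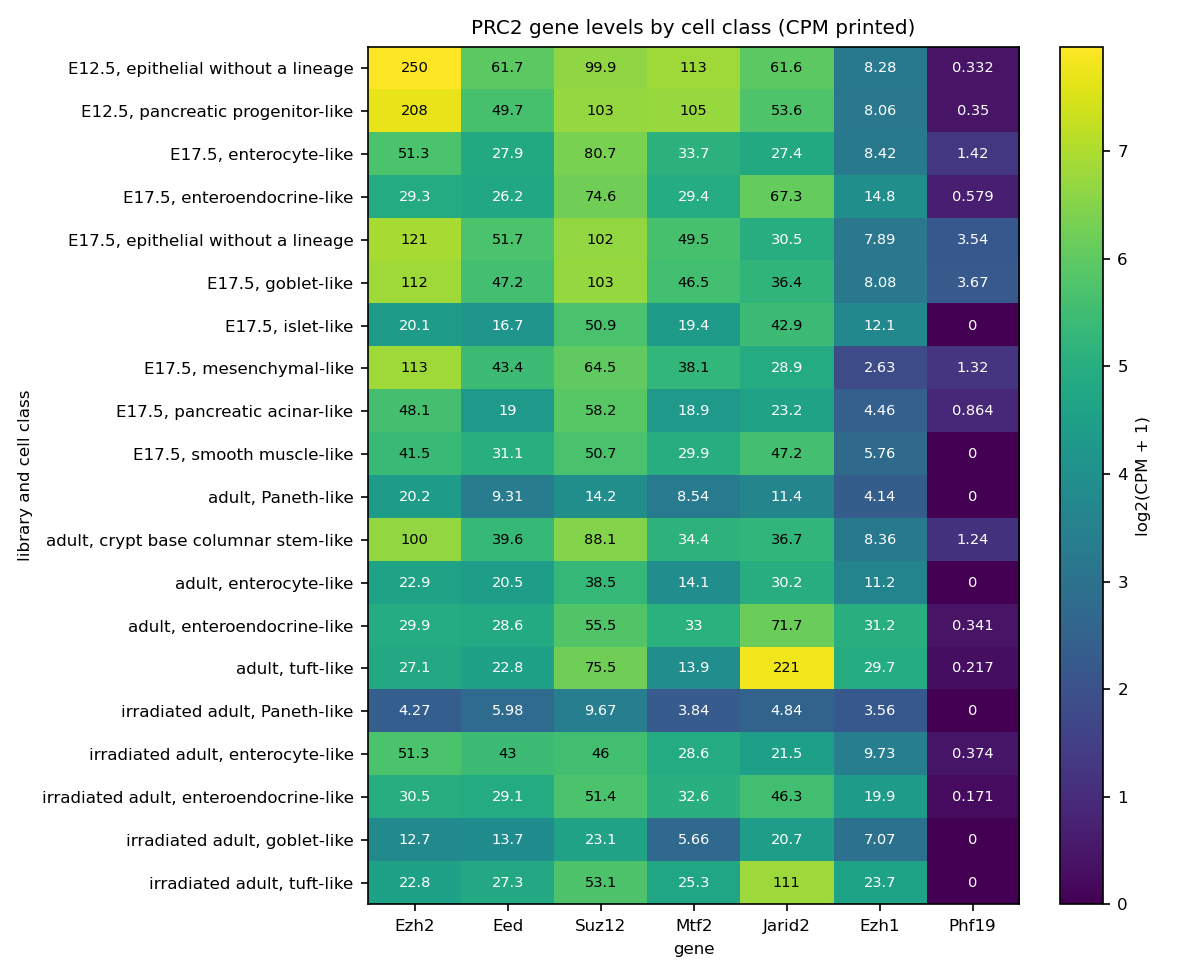
Level of each of the 7 genes by library and cell class, in CPM of summed UMIs. Jarid2 stands highest in adult tuft-like cells (221 CPM), and Ezh2 in the E12.5 epithelium (250 CPM).

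The comparison of enteroendocrine-like cells with the non-endocrine epithelium of the same library addressed how the genes differ by cell type. At E17.5 Ezh2 was called lower in enteroendocrine-like cells, at 29.2 against 97.9 CPM (3.35-fold), as was Phf19, where 17.8% of genes were, and Jarid2 was called higher, at 67.3 against 30.1 CPM (2.23-fold, 2.01 to 2.48), where 21.3% were. Ezh1 was 1.83-fold higher, under the call. The enteroendocrine-like cells were shallower, and in cells of like depth the fold of Jarid2 was 1.38 (1.05 to 1.84) from 5000 to 10000 UMIs and 1.96 (1.52 to 2.48) above, under the call, while that of Ezh2 was 0.33 and 0.32. The members' median was -0.57, against 0.11 over all genes.

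In the adult, Ezh1 was called higher in enteroendocrine-like cells, at 31.2 against 7.52 CPM (4.15-fold, 3.29 to 5.27), and so was Jarid2, at 71.7 against 27.7 CPM (2.59-fold), where 36.7% of genes were. Ezh2 was called lower, at 29.9 against 62.5 CPM (2.09-fold), where 13.7% were. In cells of at least 10000 UMIs these folds were 2.84 (2.14 to 3.77) for Ezh1, 1.78 (1.52 to 2.09) for Jarid2 and 0.50 (0.42 to 0.58) for Ezh2. The Ezh2 call was lost with unnamed clusters kept in, in cells of at least 5000 UMIs and with a pseudocount of 10 CPM, and the direction was the opposite at Leiden resolution 0.5 (log2 ratio 0.54), where no adult cluster was named stem-like.

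In the irradiated adult Ezh1 (3.13-fold), Jarid2 (3.48-fold), Mtf2 (2.46-fold) and Suz12 (2.05-fold) were called higher, where 48.7% of genes were, and none was lower (6.76% of genes). Those counts were near the background for that library, since close to 1 in 2 genes was called higher. Without Paneth-like cells, Ezh1 and Jarid2 remained higher in the adult (3.44-fold and 2.04-fold; 29% of genes higher, 18.5% lower) and irradiated adult (2.21-fold and 2.18-fold; 27.8% higher, 12.5% lower), and the fold of Ezh2 was 0.37 in adult cells, called lower, and 0.76 (0.66 to 0.87) after irradiation, not called.

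The fold of Ezh2 was nearer 1 or above it among cells of neither cycling state. There the enteroendocrine-like fold over the non-endocrine epithelium was 0.55 at E17.5, 0.91 (0.77 to 1.09) in adult cells and 1.97 after irradiation. Paneth-like cells, which held 48.5% of all irradiated non-endocrine UMIs, were kept in this comparison. The fold without them was not computed in this state. Enteroendocrine-like cells were rarely in the G2/M state: 2 of 965 at E17.5, 4 of 1620 in adult cells and 0 of 1609 after irradiation.

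Tuft-like cells carried the most Jarid2. In the adult it stood at 221 CPM against 71.7 CPM in enteroendocrine-like cells and was called higher (3.08-fold, 2.81 to 3.38), where 10.5% of genes were. Mtf2 was called lower, at 13.9 against 33.0 CPM (2.38-fold), where 33.6% were. Jarid2 was above the enteroendocrine-like level in each of the 4 adult tuft-like clusters, between 157 and 366 CPM. In bins of like depth its fold over enteroendocrine-like cells was 2.41, 2.39 and 3.37.

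The irradiated tuft-like class was mixed, which bears on its comparison with the adult. Of its 3 clusters, that of 274 cells had 15204 CPM over the 10 tuft markers and 1822 over the 10 enteroendocrine markers, whereas those of 192 and 15 cells had 4578 and 6669 CPM of tuft markers but 44257 and 54027 of enteroendocrine markers. Over the whole class Jarid2 was at 111 against 221 CPM (fold 0.50, 0.45 to 0.56), and Mtf2 at 25.3 against 13.9 CPM (1.82-fold, 1.33 to 2.52), with no member called (17.6% of genes were higher and 2.65% lower). In the cluster with more tuft than enteroendocrine marker UMIs, Jarid2 was at 155 CPM (fold 0.70, 0.61 to 0.81) and Mtf2 at 16.9 CPM (1.22-fold, 0.74 to 1.95); again no member was called, and 1.55% and 1.51% of genes were higher and lower. Jarid2 in that cluster was 3.34-fold (2.88 to 3.87) above the irradiated enteroendocrine-like level, where 9.4% of genes were called higher and 31% lower, so its excess in tuft-like cells was seen in both adult libraries. The cluster was shallower, with a median of 4648.5 against 9433.5 UMIs, and was not compared in bins of depth. For the whole irradiated tuft-like class the Jarid2 fold at like depth was 2.02, 1.73, 2.77 and 2.29 from shallow to deep, each interval above 1.

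Cycling states were assigned after each cell was thinned to 2000 UMIs: G2/M with at least 3 UMIs over 15 mitotic genes, S with at least 3 over 17 replication genes, and neither otherwise. No PRC2 gene was in either list. Of the non-endocrine cells deep enough, 63.0% were in the G2/M state at E12.5, 52.9% at E17.5, 31.1% in adult cells and 7.91% after irradiation. Ezh2 was higher in G2/M than in neither state in each library: 256 against 210 CPM at E12.5 (1.22-fold, 1.15 to 1.29), 117 against 51.5 at E17.5 (2.27-fold, 2.09 to 2.46), 106 against 31.9 in the adult (3.33-fold, 2.83 to 3.91) and 73.2 against 15.5 in the irradiated adult (4.71-fold), the last on 20 G2/M cells. At E12.5, cells of neither state had more Ezh2 than cells in G2/M of any later library. Neither state held cells with under 3 UMIs of each list, not only cells with none. Of 3061 thinned non-endocrine cells at E12.5, 521 lay at 2 or 3 mitotic UMIs, and 350 were in neither state.

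Eed, Suz12 and Mtf2 were likewise higher in G2/M in all 4 libraries, whereas Ezh1 was not in all: it stood at 8.37 against 8.05 CPM at E12.5, 7.72 against 8.74 at E17.5, 9.30 against 6.75 in adult cells and 9.14 against 6.10 after irradiation. Suz12 was at 105 against 79.0 CPM at E12.5, 106 against 70.5 at E17.5, 92.8 against 34.2 in adult cells and 58.7 against 19.7 after irradiation. Jarid2 was at 62.0 against 65.3 CPM at E12.5 and 30.8 against 29.0 at E17.5. Phf19 at E17.5 was at 3.55 CPM in G2/M and 0.582 in neither state (6.09-fold, 2.99 to 14.5), and at 4.67 CPM in S. By the fold of 2, no member was called higher at E12.5 (2.11% of genes), Ezh2 and Phf19 at E17.5 (4.71%), and Ezh2, Eed, Suz12 and Mtf2 in adult cells (25.3%) and after irradiation (42.1%). None was called lower (0.627%, 6.61%, 5.33% and 4.4% of genes). The members' medians were 0.22, 0.59, 1.24 and 1.55, against -0.04, -0.00, 0.64 and 0.87 over all genes.

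**Figure D4:**
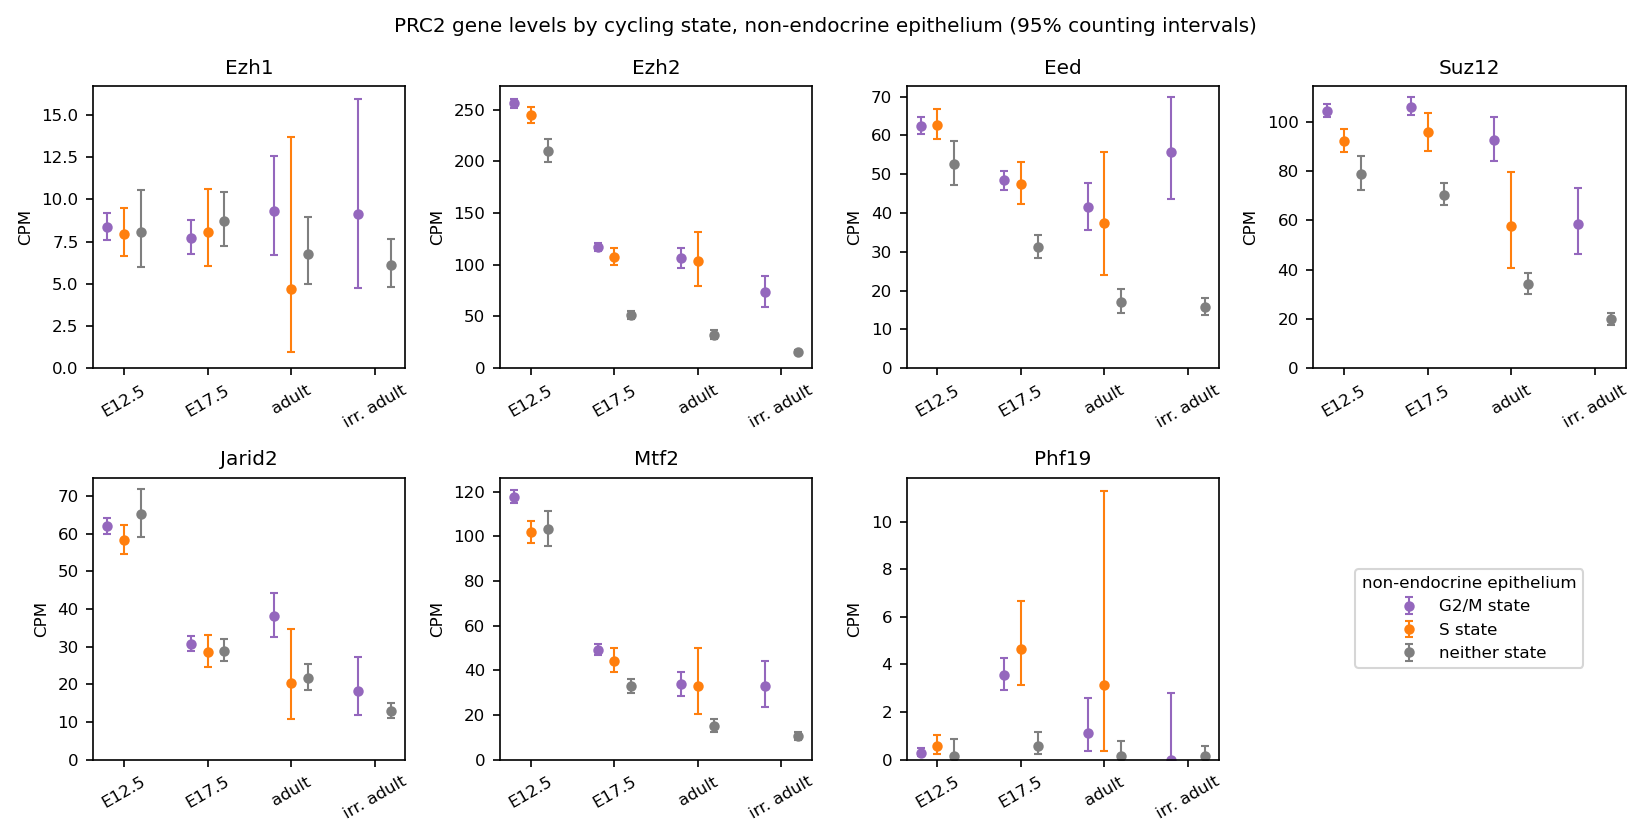
Levels of the 7 genes in CPM in the G2/M, S and neither states of the non-endocrine epithelium, by library, with 95% counting intervals; states of under 10 cells are not drawn. Ezh2 in neither state goes from 210 CPM at E12.5 to 15.5 CPM in the irradiated adult, while Ezh1 overlaps between states in each library.

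The G2/M and neither states differed in cell class as well as in cycling, so the contrast was repeated within single classes, a choice made after the data were seen. Ezh2 was at 124 against 96.2 CPM in the E17.5 epithelium without a lineage (1.29-fold, 1.15 to 1.45), 77.1 against 34.5 in E17.5 enterocyte-like cells (2.24-fold, 1.92 to 2.60), 111 against 73.2 in adult stem-like cells (1.52-fold, 1.25 to 1.86) and 73.2 against 39.7 in irradiated enterocyte-like cells (1.84-fold, 1.40 to 2.40). The direction was the same in these 4 classes and each fold was smaller than in that library's mixture, by little in E17.5 enterocyte-like cells (2.24 against 2.27). Ezh2 in those cells was the only member called in any of the 4 classes, where 3.83% of genes were called higher and 1.93% lower. In the other classes 3.18% were higher and 7.7% lower (E17.5), 2.15% and 0.957% (adult), and 3.89% and 6.72% (irradiated).

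The balance of the methyltransferases was read as the share of Ezh2 among the UMIs of Ezh1 and Ezh2, a share of captured 3′ ends and not of protein. Over the epithelial cells it was 96.7% at E12.5, 90.3% at E17.5, 67.1% in adult cells and 63.0% after irradiation. These shares also went with depth. In library order they were 96.8%, 92.0%, 80.4% and 67.6% in epithelial cells of at least 10000 UMIs. From 5000 to 10000 UMIs they were 95.7%, 71.4%, 54.8% and 54.5%. Non-endocrine cells had shares of 96.8%, 92.4%, 89.3% and 78.3% (Clopper-Pearson interval 74.0 to 82.1). Enteroendocrine-like cells had lower shares, 66.4% (60.8 to 71.7) at E17.5, 49.0% (45.2 to 52.7) in adult cells and 60.5% (57.2 to 63.8) after irradiation, and tuft-like cells had 47.7% and 49.0%. The enteroendocrine-like share went with depth: from 5000 to 10000 UMIs it was 57.5% (47.9 to 66.8) in adult and 57.4% (50.1 to 64.4) in irradiated cells, and from 2500 to 5000 UMIs 30.9% and 26.3%, so the adult and irradiated intervals overlapped at like depth. Adult stem-like cells, at 92.3%, were close to the E17.5 non-endocrine share.

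**Figure D5:**
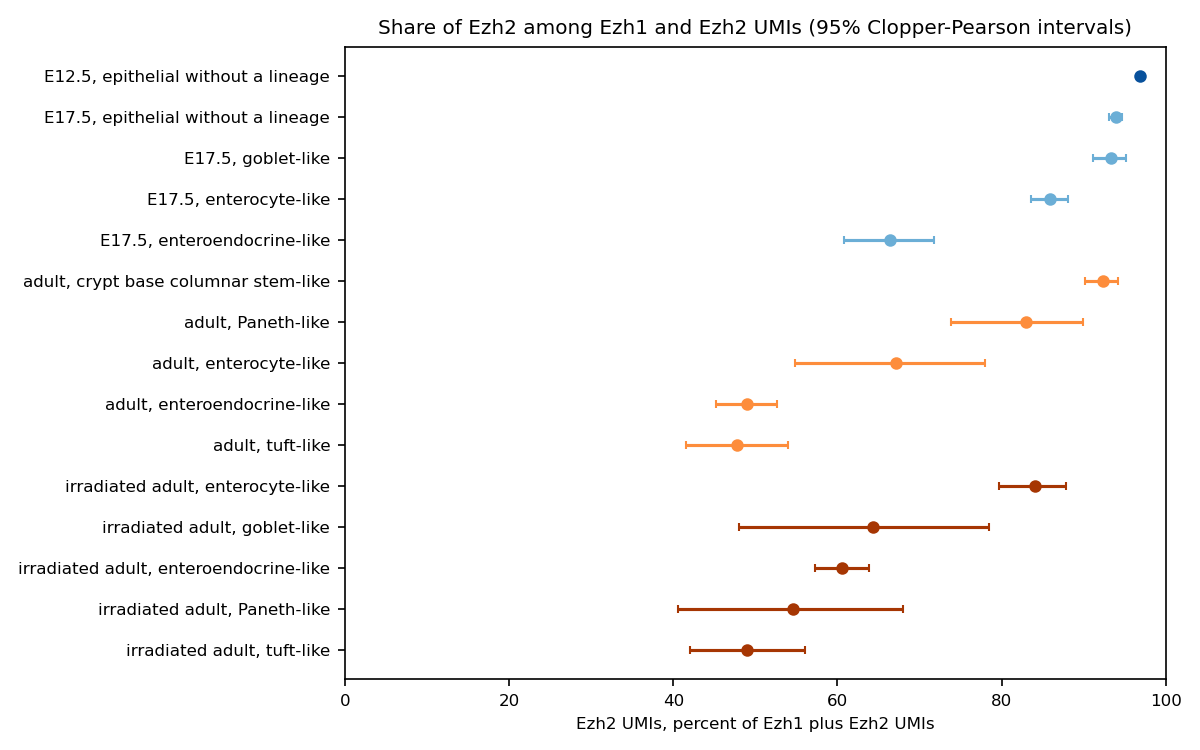
Ezh2 UMIs as a percent of Ezh1 plus Ezh2 UMIs, by library and intestinal cell class, with 95% Clopper-Pearson intervals. Adult tuft-like (47.7%) and enteroendocrine-like cells (49.0%) have the lowest shares, and the E12.5 epithelium the highest (96.8%).

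At 2000 UMIs per cell, Ezh2 was detected in 37.7% of epithelial cells at E12.5, 12.7% at E17.5, 5.49% in adult cells and 4.71% after irradiation; the unthinned shares were 85.1%, 50.3%, 16.2% and 21.6%. The thinning left out 555, 151, 647 and 483 shallower cells. Jarid2 had a UMI in 35.6% of thinned adult tuft-like cells and 21.4% of irradiated ones, against 60.0% and 55.7% unthinned. Ezh1 and Ezh2 UMIs were found together in 23 of 3355, 8 of 3325, 5 of 2950 and 4 of 2548 thinned cells in the 4 libraries. Between 31.6% (E12.5) and 66.6% (irradiated adult) of thinned cells held no UMI of any member, so presence in single cells was not resolved at this depth. No cell type known to lack PRC2 genes was available to measure free RNA, and its part in low shares was not tested.

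The other subunits and the opposing enzymes were taken from lists. Of 7 other PRC2 subunits, 6 were in the files (all but Ezhip). Over the epithelial cells, none of the 6 was called higher (15.7% of all genes) and 1 lower (17.2%) at E17.5 against E12.5, which is near the background: Epop, an elongin-binding accessory subunit, was at 3.73 against 28.4 CPM. In the adult against E17.5, where 14.6% of genes were higher and 15% lower, the histone chaperones Rbbp4 (66.1 against 147 CPM) and Rbbp7 (96.1 against 439) and Epop (1.21 against 3.73) were called lower, and the Polycomb-like gene Phf1 was called higher (7.76 against 3.22 CPM). Kdm6b, a demethylase that removes the PRC2 mark, was called higher in the same comparison, at 99.2 against 46.4 CPM, while Kdm6a, the other demethylase, was at 43.4 against 21.7 CPM and was not called. The adult cells were shallower, with a median of 3606 against 11641 UMIs, and both genes varied with depth. At E17.5 Kdm6b was at 103 CPM from 5000 to 10000 UMIs and 35.5 CPM in deeper cells, and Kdm6a at 35.7 and 19.3 CPM. The part of depth in these demethylase values was not tested. None of the 5 tested subunits or the 2 demethylases was called after irradiation over the epithelial cells (3.05% of genes higher, 5.35% lower). Aebp2, the partner of Jarid2, was called higher in tuft-like than in enteroendocrine-like cells in the adult (92.4 against 39.0 CPM), where 10.5% of genes were. In the irradiated adult, whose tuft-like class was mixed, it was at 96.3 against 37.6 CPM. Aebp2 was not compared in bins of depth.

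Of 8 genes known as PRC2 targets, at most 3 had enough UMIs to be tested in a comparison of epithelial cells. Cdkn2b, an inhibitor of the cell cycle, was called higher at E17.5 than at E12.5, at 44.7 against 2.27 CPM, and was at 44.1 and 48.2 CPM in the adult and irradiated adult. Hoxd13, a homeobox gene of the posterior body, was called lower in the same comparison, with 0 UMIs at E17.5 and 102 UMIs (1.28 CPM) at E12.5. Cdkn2a, the neighbour of Cdkn2b, was at 1.51 CPM at E17.5 and 0.0336 CPM in the adult and was called lower. Histone methylation was not measured, so these levels say nothing of the mark itself.

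Across 20 library-by-class groups of at least 50 cells, the genes whose log2(CPM + 1) followed each member most closely among 12367 genes were found by Pearson's r. They were Nup62 (0.976), Ssrp1 and Supt16 for Ezh2, Ppig (0.972), Nup214 and U2surp for Eed, Ddx46 (0.959), U2surp and Caprin1 for Suz12, and Sf3a1 (0.971), Ipo11 and Supt16 for Mtf2. For Jarid2 they were Rsbn1l (0.963), Strbp and Paxbp1, for Ezh1 Baz2a (0.935), AI480526 and Hspa4l, and for Phf19 Hist1h2an (0.863), Hist1h3g and Fcmr. Among the members, r was 0.92 between Eed and Mtf2, 0.91 between Ezh2 and Mtf2, 0.90 between Ezh2 and Eed, 0.77 between Ezh1 and Jarid2 and -0.12 between Ezh1 and Ezh2. These are descriptions: the 20 groups share 4 libraries, their depths and their gene totals.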

How the data were processed

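The deposited values were UMI counts per gene and cell for each library, whole numbers made by the authors with Cell Ranger 3.1.0 on mm10, per the submitters' processing notes. Barcodes needed 500 detected genes and no more than 20% mitochondrial UMIs. Scrublet's automatic threshold marked at most 0.174% of cells, so the highest-scoring cells were removed instead, at 0.8% per 1000 barcodes. Each library was clustered by Leiden (scanpy 1.11.5, leidenalg 0.10.2, resolution 1) with PRC2 genes left out, and clusters were named from fixed marker lists. Counts were summed per class and divided by the total (CPM). Intervals were exact Poisson for levels, exact conditional binomial for folds and Clopper-Pearson for shares; they cover counting error only. The pseudocount was 1 CPM. Genes named in the text are the 7 members, the fixed lists of other PRC2 subunits, demethylases and PRC2 targets, and the 3 genes most like each member; the members and lists were chosen with earlier results of these data known, and Malat1, Ccnd1 and Ube2c were named after their values were seen. The contrast code was tested on simulated data. Ezh2, Suz12 and Mtf2 overlap counted genes on the opposite strand; how strand was treated in counting is not given in the sources used here. TMM factors came from edgeR 4.0.16.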

Additional observations from a re-analysis of the deposited data

Results flagged for a closer look

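The same contrast went in opposite directions in 2 groups for 5 gene and comparison pairs, each with counting intervals away from a fold of 1; with 1 library per group the difference between the groups was not tested. In enteroendocrine-like cells against the non-endocrine epithelium, the fold of Ezh2 was 0.299 at E17.5 and 0.479 in adult cells but 1.34 after irradiation. Eed had folds of 0.600 at E17.5 and 1.40 after irradiation, and Suz12 0.784 and 2.05. Mtf2 had folds of 0.666 at E17.5, 1.44 in adult cells and 2.46 after irradiation. Paneth-like cells held 48.5% of the irradiated non-endocrine UMIs, and without them the irradiated fold of Ezh2 was 0.76. Ezh1 and Jarid2 were then the 2 members called higher, and Suz12 and Mtf2 were no longer called. After irradiation, the fold of Mtf2 was 1.82 in tuft-like cells and 0.577 in the non-endocrine epithelium. In the tuft-like cluster with more tuft than enteroendocrine marker UMIs it was 1.22, with an interval that included 1.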

How the results depend on the processing

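Each comparison rests on 1 library per group and is limited by depth, most of all for Phf19 and for the irradiated G2/M cells. No paired analysis was possible because each group has 1 library. Of the alternatives tried for summary results, 343 kept a count within 1.5 times or a share within its interval and 67 did not. The 35 called log2 ratios were recomputed under alternatives, which gave 393 values. Alternatives of the pseudocount, UMI minimum and fold could not change a sign, so their values kept it by construction. Of all 393 values, 390 kept their sign. The exceptions were Ezh2 (1.13) and Suz12 (0.25) for the irradiated adult against the adult within enterocyte-like cells, and Ezh2 in adult enteroendocrine-like cells against the non-endocrine epithelium, at 0.54 at Leiden resolution 0.5, where the stem-like cluster lost its name. The cause of the other changes was not tested. Numbers of members called follow.

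For E17.5 against E12.5, those higher went from 1 to 0 with a pseudocount of 10 CPM or a minimum of 200 UMIs in both cell sets, and those lower among epithelial cells from 2 to 4 at a fold of 1.5. For the adult against E17.5 over epithelial cells, those higher went from 2 to 0 with the filter of 1000 genes and 10% mitochondrial UMIs, with a pseudocount of 10 or in cells of at least 5000 UMIs (added after seeing the data), and to 1 without mitochondrial and ribosomal genes. Those lower went from 1 to 2 with that filter, TMM factors, totals without those genes or a pseudocount of 0.1, to 0 with a pseudocount of 10 or 200 UMIs, and to 4 at a fold of 1.5. In the non-endocrine epithelium those lower went from 1 to 4 with that filter, 2 with CPM averaged over cells, 0 with a pseudocount of 10 or 200 UMIs and 5 at a fold of 1.5; in enteroendocrine-like cells those higher went from 1 to 0 with that filter, doublets kept, a pseudocount of 10 or at least 5000 UMIs.

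For the irradiated adult against the adult, those lower over epithelial cells went from 0 to 1 with CPM averaged over cells and 2 at a fold of 1.5, and in the non-endocrine epithelium from 3 to 1 with the stricter filter, TMM factors, averaged CPM, a pseudocount of 10 or without Paneth-like cells; within enterocyte-like cells those lower went to 0 and those higher from 0 to 2. Those lower went from 0 to 2 in enteroendocrine-like cells at a fold of 1.5, and from 0 to 1 in tuft-like cells with the stricter filter, TMM factors or a fold of 1.5; those higher in tuft-like cells went from 0 to 1 at a fold of 1.5 or at least 5000 UMIs.

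For enteroendocrine-like cells against the non-endocrine epithelium at E17.5, those higher went from 1 to 0 (pseudocount 10) or 2 (fold 1.5) and those lower from 2 to 1 (pseudocount 10, 200 UMIs). In the adult those higher went from 2 to 5 (resolution 0.5) or 1 (at least 5000 UMIs) and those lower from 1 to 0 (pseudocount 10, resolution 0.5, unnamed clusters kept in, at least 5000 UMIs); in the irradiated adult those higher went from 4 to 1 (pseudocount 10) or 2 (without Paneth-like cells). In the G2/M state against neither, those higher went at E17.5 from 2 to 1 (pseudocount 10, 200 UMIs), 4 (fold 1.5), 1 (within enterocyte-like cells) or 0 (5 UMIs for a state, thinning to 1000 UMIs, within the epithelium without a lineage), in the adult from 4 to 2 (pseudocount 10, 200 UMIs) or 0 (within one class), and in the irradiated adult from 4 to 1 (200 UMIs) or 0 (within one class). The Ezh2 share went from 89.3% to 91.5% in the adult non-endocrine epithelium with the stricter filter, and from 63.0% to 60.1% with every barcode and 66.1% with the stricter filter in irradiated epithelial cells.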
